A study of Sus scrofa with 12 samples.

Results

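In every GRID-seq library of pig skeletal muscle, a minority of the RNAs found on chromatin carried no gene name and were listed under a running label that starts with Tx. GRID-seq joins an RNA to the DNA beside it in fixed nuclei, so that each pair of reads tells which RNA was made and where on the genome it lay. The RNAs described here are the Tx transcripts of the 4 GRID-seq lists, apart from those in 1 interval of chromosome 6 that is not analysed here. They were 294 of the 2420 RNAs listed, with 2035 RNAs listed by gene name or identifier as the comparison. The libraries came from longissimus muscle of male piglets aged 2 weeks, 2 libraries of Large White (LW), a lean commercial breed, and 2 of Meishan (MS), a local Chinese breed, with no treatment in either group. A further 4 libraries of H3K27ac BL-HiChIP, 2 per breed, listed chromatin loops between 5-kb anchors at DNA that carries this mark of active enhancers and promoters. Whether the libraries of a breed came from different piglets is not clear from the sources used here, so p-values measure the spread between libraries, which may be technical.

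RNA stays on chromatin for several known reasons. A nascent transcript is held at its own gene by the polymerase that makes it, an RNA that runs past the annotated end of a gene lies just downstream of it, and antisense RNAs, enhancer RNAs and long noncoding RNAs can remain near the place where they were made. A few abundant nuclear RNAs leave that place and touch many chromosomes. Annotations of livestock genomes miss some first exons, 3′ ends and noncoding RNAs, and such stretches reach a list without a name.

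The lists summed to 8181721 and 9943666 reads for LW against 7172517 and 9381797 for MS. Of 11 muscle fibre markers, 6 were listed by name in all 4 libraries (TTN, NEB, MYH7, TNNT3, CKM and ATP2A1). Of the markers of other cell types, 3 of 6 fibroblast markers (COL1A1, COL1A2 and COL3A1) and 1 of 6 adipocyte markers (PLIN4) were listed in at least 1 library, and those of endothelium, leukocytes, erythroid cells and nerve were listed in none. Outside the left-out interval of chromosome 6, no Tx transcript overlapped a marker gene of any of these cell types. Tx transcripts inside that interval were not counted, so a marker gene there could not show an overlap. In whole tissue, fewer cells of a type and less RNA per cell cannot be told apart.

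There were 87 Tx transcripts in LW 1 and 111 in LW 2, the first and the second LW library, or 15.2% and 16.3% of their RNAs. MS 1 held 42 and MS 2 held 54, which were 8.09% and 8.32%. The breeds did not overlap (99 ± 17 against 48 ± 8.5, mean and SD, n = 2), but 2 libraries against 2 cannot give an exact permutation p below 0.33, which is the two-sided value here. The part of the listed reads in this difference was not tested.

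Tx transcripts were short RNAs with few reads. Their median length was 4294 and 4302 bases for LW, and 4120.5 and 4839 for MS, against 18892, 21890, 16826 and 19456 bases for the named RNAs of the same libraries. Their median number of reads was 772, 727, 731 and 807, in the order LW 1, LW 2, MS 1 and MS 2, whereas named RNAs had 4405, 4656, 3303.5 and 3814. The difference had the same direction in 4 of 4 libraries for length and for reads, with an exact sign-flip p of 0.13 for each, the smallest that 4 libraries allow. Per kb of listed interval the order turned: Tx transcripts had 189, 169, 173 and 167 reads per kb in the same order, and named RNAs had 163, 153, 146 and 146 (exact p = 0.13). No listed Tx transcript fell under 96.6 reads per kb, whereas named RNAs went down to 37.7, so the densities compare a set with a floor to a set without it. The + strand held 42.5%, 42.3%, 50.0% and 46.3% of the Tx transcripts.

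**Figure D1:**
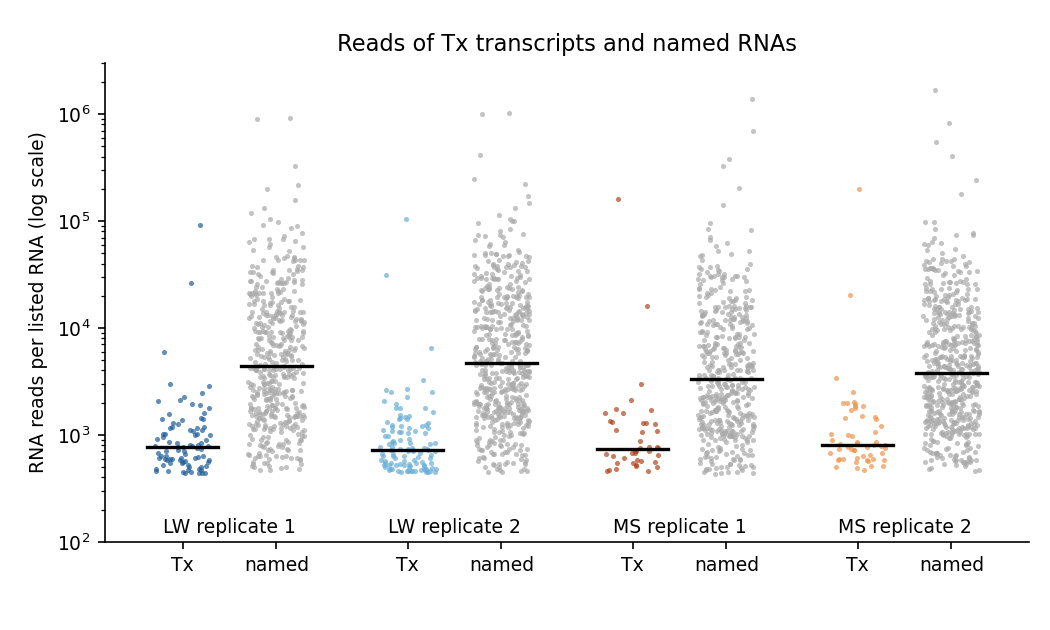
RNA reads (log scale) of each listed RNA in the 4 GRID-seq libraries, with Tx transcripts in colour, named RNAs in grey and the median as a black bar. Tx transcripts have medians between 727 and 807 reads, and 2 of them in each library stand far above the others.

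Most Tx transcripts lay inside annotated genes. The share that overlapped a RefSeq gene was 81.6%, 76.6%, 90.5% and 90.7%, and 94.3%, 89.2%, 97.6% and 96.3% lay within 5 kb of one. None shared a base with a named RNA of the same strand listed in any library, and 11 overlapped a named RNA of the opposite strand listed in any library. They overlapped 105 genes in all, of which 77 were protein-coding and 12 were also listed by name in some library. Over all 28247 RefSeq genes on placed chromosomes, 583 were listed by name. Only 57 of the 105 had a symbol among Ensembl's gene names, and a gene without one may be listed under an identifier. A Tx transcript was found within 10 kb of a named RNA of its own strand in 97 of 294 cases, 71 of them downstream of that RNA and 26 upstream, and within 10 kb of one on the opposite strand in 24 cases. These counts used the named RNAs of all libraries, and some were not listed in the library of the Tx transcript.

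The 12 genes listed both ways show where Tx transcripts sat relative to the named interval. Of 40 Tx transcripts in these genes, 13 began after the 3′ end of the listed interval, 18 ended before its 5′ end and 9 ran on the opposite strand. XIRP1, an actin-binding protein of the muscle fibre, carried Tx transcripts at its 5′ side. Its named RNA was listed in MS alone, with 2209 and 2599 reads, and a Tx transcript of 2.3 kb just upstream (chr13:23874549-23876822, - strand, Sscrofa11.1), still within the RefSeq gene, had 2123 and 2512 reads in the same libraries. ZMIZ1, a coactivator of transcription, had 3 Tx loci before its listed start, with 857 reads in LW 2 and 2348 and 3781 in MS and none listed in LW 1. DNMT3A, which encodes a DNA methyltransferase, had 1 Tx locus near the 5′ end of its RefSeq gene in all 4 libraries, 16.1 to 20.3 kb before the listed interval. MLXIP and TNRC6B were listed under either label. The LW libraries listed a Tx transcript beyond the 3′ end of the named MLXIP interval (574 and 617 reads) and no MLXIP by name. This Tx transcript still overlapped the RefSeq gene. The MS libraries listed MLXIP by name (5330 and 6496 reads) and no Tx transcript there.

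Among these 12 genes, whose strand the lists give, the largest antisense group lay across NMRK2, a nicotinamide riboside kinase enriched in muscle. On the + strand, between bases 74780484 and 74806438 of chromosome 2, 18 Tx transcripts formed 7 loci over 25.96 kb that reached into ATCAY, and the MS libraries listed NMRK2 itself on the - strand. The antisense Tx transcripts that overlapped NMRK2 had 8906 and 9073 reads for LW against 4039 and 4627 for MS. The named NMRK2 RNA had 887 and 1307 reads in MS and was not listed in LW. The antisense reads thus exceeded the named ones in both MS libraries. An RNA missing from a list is not known to have 0 reads, because the lowest RNA of each list had between 432 and 455 reads.

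Neighbouring Tx transcripts also formed chains inside genes that no library listed by name. Of the genes below, SYNM, JPH2, NNAT and LOC106504991 had no symbol among Ensembl's gene names, so they may be listed under an identifier. KMT2E, a SET-domain protein of the chromatin regulators, held the largest, 17 Tx transcripts at 8 loci over 31.2 kb of the - strand (chr9:104880062-104911305), with 6486 and 6501 reads for LW against 1827 and 2818 for MS. All 17 also overlapped LOC106504991, another protein-coding gene. Gene positions carried no strand, so the gene they belong to cannot be told from them. SSH2, a phosphatase that activates cofilin, held 18 Tx transcripts scattered along the gene, with 2642, 3801, 1019 and 4663 reads. On the + strand, 4 loci lay at the high-coordinate end of SYNM, the intermediate filament protein synemin, and in the overlapping gene TTC23 (chr1:137881793-137896121), with 5070 and 4999 reads for LW against 3118 and 3451 for MS. JPH2, a junctophilin that ties the sarcoplasmic reticulum to the cell membrane, had 1546, 1196, 1377 and 1568 reads. BLCAP and NNAT, a nested and imprinted pair, were crossed by 1 Tx transcript in each LW library (14.9 and 22.1 kb) and by 2 shorter ones in each MS library.

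Of the muscle gene lists, Tx transcripts overlapped 3 of 57 sarcomere and Z-disc genes (SYNM and XIRP1 among them), 1 of 30 genes of calcium handling (JPH2), 1 of 32 of the membrane and cytoskeleton (SYNE2, a nesprin of the nuclear envelope), 1 of 35 transcription regulators (RORA, a nuclear receptor) and 0 of 24 of glycolysis and glycogen. Over all 19563 protein-coding RefSeq genes on placed chromosomes, Tx transcripts overlapped 77, and 580 were listed by name in some library. Tx transcripts in the left-out interval of chromosome 6 were not counted, so a list gene there could not show an overlap. RORA and SYNE2 were each touched by 1 Tx transcript of 464 reads in 1 LW library. Most genes of these lists that were on chromatin were listed by name instead, 40 of the sarcomere list and 16 of the glycolysis list among them.

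Tx transcripts that overlapped no gene numbered 16, 26, 4 and 5, and all of them lay within 27.2 kb of a gene. The 2 with the most reads belong to the loci described below. A further one ran toward NMRK2 from 3.3 kb away (chr2:74780484-74783308, + strand) with 2998 reads in LW 1, 1693 in MS 1 and 1990 in MS 2. On the - strand of chromosome 11, between LOC100523747 and SHISA2, a locus present in all libraries (bases 3795505 to 3803301) had 780, 1314, 879 and 1015 reads. The others of the 10 non-genic loci of most reads were listed in LW alone. They included loci between MAGI2 and PHTF2 on chromosome 9 (102165896 to 102220531, 4770 and 4881 reads with the genic pieces), 1 beside LOC396711 on chromosome 12 (1194 and 1397 reads), 1 beside C9H1orf21 (891 and 1112 reads) and 1 about 9 kb from EGF (441 and 1047 reads). One began 1.9 kb beyond MIR133B (chr7:45982143-45984938, + strand) with 640 and 748 reads. MIR133B and its neighbour MIR206 are microRNAs of skeletal muscle. Leaving out the 2 loci of most reads, genic and non-genic Tx transcripts had medians of 772 and 675 reads in LW 1, 737 and 594.5 in LW 2, 709.5 and 1286 in MS 1 and 780 and 1015 in MS 2, with 2 and 3 non-genic Tx transcripts behind the MS values.

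H3K27ac loops touched most Tx transcripts. An anchor of a loop called in either library of the same breed overlapped 71.3%, 72.1%, 76.2% and 79.6% of the Tx transcripts, against 96.1%, 96.3%, 95.2% and 95.4% of the named RNAs (lower in 4 of 4 libraries, exact sign-flip p = 0.13). Tx transcripts were shorter than named RNAs, and when an anchor had to hold the midpoint of the interval the shares were 59.8%, 58.6%, 61.9% and 68.5% for Tx transcripts and 60.3%, 59.6%, 57.4% and 56.6% for named RNAs, higher for Tx transcripts in 2 of 4 libraries (exact p = 0.5). Named RNAs of at most 10 kb still met an anchor in 93.5% to 94.7% of cases, with a median length between 5993 and 6379 bases. Genic Tx transcripts met an anchor more often than non-genic ones in 4 of 4 libraries (76.1% against 50.0% in LW 1, 77.6% against 53.8% in LW 2, 81.6% against 25.0% in MS 1 and 83.7% against 40.0% in MS 2; exact p = 0.13). Without the 2 loci of most reads the non-genic shares were 57.1%, 58.3%, 50.0% and 66.7%, on 14, 24, 2 and 3 Tx transcripts, still lower in 4 of 4 libraries. The locus at LOC110259183 was touched by 10, 13, 6 and 9 loops in the 4 BL-HiChIP libraries. The loci on chromosomes 6 and 8 with the most reads had 0 in each. A Tx transcript also had signal at 15.0%, 15.8%, 14.5% and 26.0% of the anchors to which its own anchor was looped, against 50.9%, 55.9%, 46.0% and 52.7% for named RNAs. Named RNAs had more reads and longer intervals, and these shares were not compared at like reads or length.

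The signal of a Tx transcript lay around its own interval. The share within 10 kb of it had a median of 93.8%, 92.7%, 92.4% and 82.0%, against 86.6%, 79.5%, 92.2% and 86.7% for named RNAs, so that Tx transcripts were higher in 3 of 4 libraries (exact p = 0.375). With RNAs of at least 1000 reads on both sides Tx transcripts were higher in 1 of 4 libraries, with 82.1%, 74.9%, 80.0% and 69.5% against 81.9%, 76.7%, 89.2% and 83.6%. In the deposited signal a contact on another chromosome filled a run of adjoining 1-kb bins, with a most frequent length of 23 bins in every library. Bins are therefore not separate contacts, and runs of adjoining bins were counted as contact sites. The Tx transcripts with a single site at their own interval were 79.3%, 76.6%, 73.8% and 63.0%, compared with 44.7%, 38.0%, 50.2% and 45.0% of named RNAs (higher in 4 of 4 libraries, exact p = 0.13). Among RNAs under 1000 reads, 96.5%, 91.9%, 80.8% and 82.9% of Tx transcripts had 1 site in all, as did 96.4%, 78.3%, 92.9% and 85.5% of named RNAs, so that neither kind was higher in every library.

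**Figure D2:**
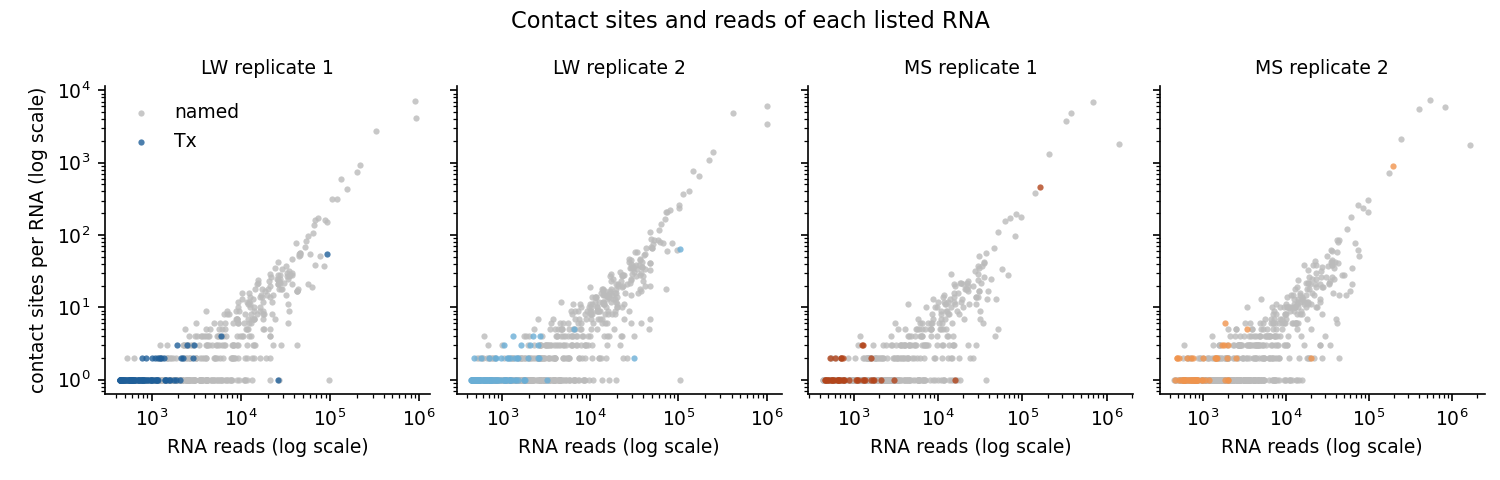
Contact sites of each listed RNA (runs of adjoining 1-kb bins) against its reads, both on log scales, with named RNAs in grey and Tx transcripts in colour. Sites rise with reads in all libraries, and most Tx transcripts sit at 1 site at the low end of the reads.

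Beside the interval, signal reached farther on the 3′ side than on the 5′ side. From 5 to 20 kb away, the mean share of a Tx transcript's signal was 18.1% downstream and 6.41% upstream in LW 1, 15.7% and 7.73% in LW 2, 12.5% and 8.31% in MS 1 and 14.2% and 7.54% in MS 2 (4 of 4 libraries, exact p = 0.13). Named RNAs had the same direction with smaller shares, 5.74% to 6.94% downstream and 3.14% to 3.53% upstream. They were longer and held a mean of 53.2% to 57.7% of their signal inside their own interval. For Tx transcripts that mean was 26.6% to 27.9%. The shares were not compared at like length.

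**Figure D3:**
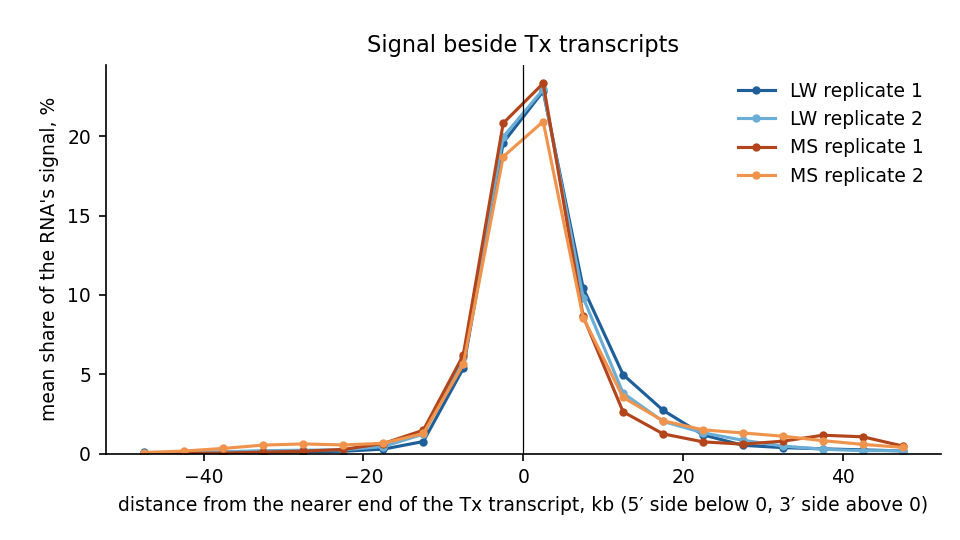
Mean share of the signal of Tx transcripts in 5-kb steps on either side of the interval, in percent, by library, without the 2 loci of most reads. The share falls more slowly on the 3′ side, in which it is 12.5% to 18.1% between 5 and 20 kb, than on the 5′ side, with 6.41% to 8.31%.

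Apart from the 2 loci of most reads, 66 Tx transcripts had a site on their own chromosome more than 10 kb away, 47 of them exactly 1, and the farthest site had a median distance of 87.0 kb. The locus across NMRK2 (chr2:74783833-74789705) had 3 and 4 such sites in LW 1 and LW 2 and 4 in MS 2, the farthest 2345 kb away. The TTC23 locus had 2 and 3 in LW, up to 596 kb, and the locus at LOC100523747 had 5 in MS 2, up to 259 kb. None of these Tx transcripts had signal on another chromosome: in each library the 2 Tx transcripts with such signal were those of the 2 loci of most reads, whereas 74, 89, 63 and 78 named RNAs had it.

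The Tx locus with the most reads was a 1.3-kb interval of the + strand of chromosome 6 (128758706 to 128760041) that overlapped no RefSeq gene and lay between LOC100522145 and MCOLN2, 12.9 kb from the latter. It had 91537 and 104231 reads for LW against 161798 and 197833 for MS, or 1.12%, 1.05%, 2.26% and 2.11% of all listed reads, and ranked 12th, 11th, 6th and 6th among all RNAs. Whether this interval, or that on chromosome 8 described next, matches an RNA made from several copies in the genome was not tested, since no genome was used. It had no bin within 10 kb of itself in any library. Instead it had 54, 65, 460 and 896 sites, and 95.0%, 91.7%, 90.5% and 89.5% of its signal lay on other chromosomes, of which it touched 16, 17, 18 and 18. The median site was 23 bins long in 3 libraries and 24 in MS 2, close to the length of an isolated contact. The LW libraries shared 1 of their 54 and 65 sites. The MS libraries shared 77 sites, 16.7% of the first and 8.59% of the second, and 3 regions were touched in 3 libraries (chr5:40136001-40209000, chr15:524001-588000 and chr15:84262001-84343000). Named RNAs within 1.5-fold of its reads had a median of 144.5 and 208 sites in LW (14 RNAs each), above the Tx locus, while for MS this range held only 2 named RNAs per library, 1 with more sites and 1 with fewer.

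The locus with the next most reads lay on the - strand of chromosome 8 (54236758 to 54238650), 1.4 kb from the pseudogene LOC110261954, with 26136 and 30929 reads for LW against 16086 and 20415 for MS. It had 1 site in LW 1 and MS 1 and 2 in LW 2 and MS 2, none at its own interval and none shared between libraries. Named RNAs within 1.5-fold of its reads had a median of 18, 27.5, 8 and 12 sites. Together the 2 loci held most of the Tx reads. All Tx transcripts were 2.48%, 2.43%, 3.01% and 2.91% of the listed reads, higher in MS, and without the 2 loci they were 1.04%, 1.07%, 0.526% and 0.580%, higher in LW (exact p = 0.33 for either).

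Joined where they overlapped on the same strand, the 294 Tx transcripts made 151 loci. Of these, 22 were listed in all 4 libraries (333 of 888 loci over all RNAs, Tx included), 12 in 3, 45 in 2 and 72 in 1. In the LW libraries 74.7% of the first and 57.7% of the second list recurred in the other, and in the MS libraries 95.2% and 74.1%. Between breeds, 23.4% to 34.5% of the LW Tx transcripts were met again in an MS library and 57.4% to 69.0% of the MS ones in an LW library. The LW lists are longer, so the 2 directions have different ceilings. In every one of these comparisons the Tx transcripts that did not recur had fewer reads than those that did, for example a median of 588.5 against 835 from LW 1 to LW 2. Where 1 Tx transcript met 1 other, their ends were close: the median distance was 17.5 bases at the 5′ end and 29.5 at the 3′ end within a breed (92 pairs) and 35.5 and 102.5 between breeds (98 pairs).

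**Figure D4:**
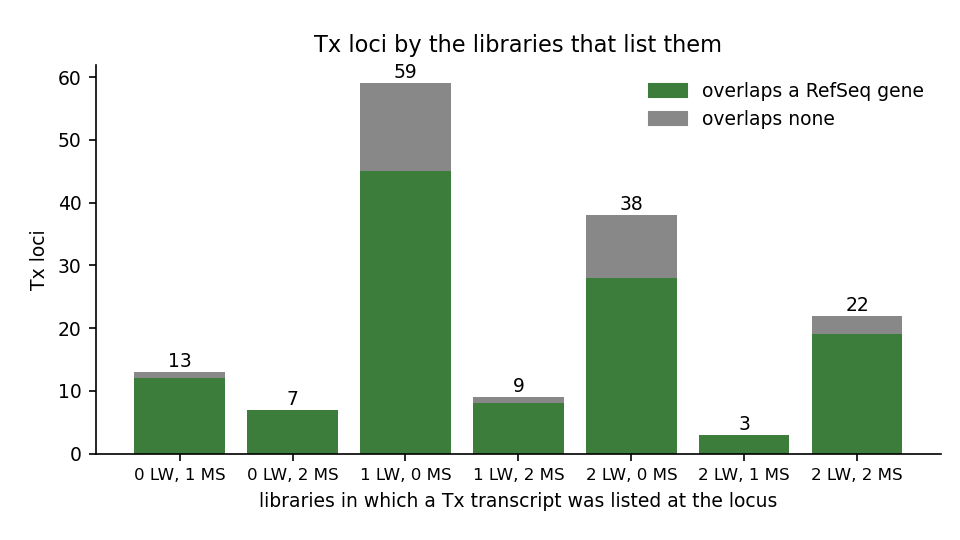
Number of Tx loci by how many LW and MS libraries listed them, with loci that overlap a RefSeq gene in green. In all, 38 loci were listed in both LW libraries and no MS library, 7 in both MS libraries and no LW library, and 22 in all 4.

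Of the Tx loci, 97 were listed in LW alone and 20 in MS alone, and 34 were met in both breeds. The same split over all listed RNAs is not given, so these counts show no trait of Tx loci. The genes whose Tx transcripts were listed in LW alone included ALPK2, an alpha-kinase gene (8 Tx transcripts, 3048 and 4926 reads), KCNJ12, an inward-rectifier potassium channel (2698 and 3063 reads), ACOX2, a peroxisomal oxidase (1118 and 2112 reads), and PSTPIP1, an adaptor of the cytoskeleton (1593 and 2601 reads). The 8 Tx transcripts in ALPK2 also overlapped the long noncoding RNA gene LOC106509068. XIRP1 led the loci listed in both MS libraries alone. These are presences on a list, with no count behind the absences, and were not tested.

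Reads were compared between breeds at the 333 loci listed in all 4 libraries, named RNAs included, with edgeR's quasi-likelihood test. At a Benjamini-Hochberg adjusted p under 0.05 it called 81.7% of all loci, 41.7% higher in LW and 39.9% higher in MS, with a common dispersion of 0.00899 between duplicate libraries. Of the 22 Tx loci it called 15, 9 higher in LW and 6 higher in MS, a smaller share than over all loci. Among loci with a mean of at least 1000 reads it called 14 of 16 Tx loci and 260 of all 308. There the Tx share was not the smaller. The median log2 difference (LW minus MS) was 0.22 for the Tx loci and -0.01 for all loci. Scaling by the total of listed reads moved the median of all loci to 0.14, with 162 calls higher in LW and 101 in MS in place of 139 and 133, and 11 and 5 among the Tx loci.

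Among the Tx loci called higher in LW, the antisense loci of NMRK2 had the smallest p. The one over the 5′ end of NMRK2 (chr2:74789915-74794169) had 2891 and 3247 reads for LW against 1059 and 1199 for MS (log2 difference 1.26, SE 0.03, edgeR adjusted p = 3.46e-05), or 0.70 with the listed length as an offset (edgeR adjusted p = 0.000157). The locus before it on the + strand (chr2:74783833-74789705) had 6015 and 6544 for LW against 2980 and 3428 for MS (0.79, SE 0.03, edgeR adjusted p = 8.49e-05). At DNMT3A the reads were 2257 and 2526 for LW against 930 and 1238 for MS (0.96, SE 0.06, edgeR adjusted p = 0.000438). At SUN1 and GET4, a nuclear envelope gene and its neighbour, they were 923 and 980 against 460 and 511 (0.79, SE 0.06, edgeR adjusted p = 0.000859). The Tx transcripts there also overlapped the long noncoding RNA gene LOC110259828 in all libraries, and GET4 in LW alone. For SUN1 the outlined interval was itself longer in LW, with 4544 and 4591 bases against 2711 and 2652 for MS. With the listed length as an offset the difference at SUN1 was 0.02 (edgeR adjusted p = 0.762), and that at BLCAP and NNAT, 0.76 by reads (edgeR adjusted p = 0.0233), was -0.05 (edgeR adjusted p = 0.318).

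Of the Tx loci called higher in MS, the smallest p was that of the locus on chromosome 6, with the reads given above, no overlap between the breeds and a stable length of 1319 to 1331 bases (log2 difference -1.06, SE 0.02, edgeR adjusted p = 2.41e-05). The largest difference by reads was at LOC110259183 (chr2:1355950-1365906, - strand), with 597 and 578 reads for LW against 1286 and 1707 for MS (-1.52, SE 0.10, edgeR adjusted p = 0.000455). The neighbouring MRPL23, a mitochondrial ribosomal protein gene, was overlapped in MS 2 alone. This locus was outlined over 6108 and 5614 bases for LW against 8256 and 9943 for MS. With the listed length as an offset the difference was -0.89 (edgeR adjusted p = 0.000404), smaller than that of the chromosome 6 locus (-1.07). The locus at the high-coordinate end of SYNM had 1582 and 1780 reads for LW against 1761 and 1997 for MS (-0.34, SE 0.03, edgeR adjusted p = 0.00136), while the adjoining one in TTC23 was called higher in LW (2488 and 2673 against 1357 and 1454 reads, 0.69, SE 0.06, edgeR adjusted p = 0.000993). The locus at LOC100523747 had 1188 and 1510 against 1613 and 1868 reads (-0.55, SE 0.08, edgeR adjusted p = 0.00444). That at C2CD3, a centriole gene, had 1164 and 1229 against 1316 and 1963 (-0.62, SE 0.13, edgeR adjusted p = 0.0144), a call lost without either LW library (adjusted p = 0.0672 and 0.0832). The call at LSR, a lipoprotein receptor (-0.40, edgeR adjusted p = 0.0369), was lost without LW 1, LW 2 or MS 2 (adjusted p = 0.14, 0.0598 and 0.109) and when scaled by the total of listed reads (-0.26, edgeR adjusted p = 0.0522), and that at BLCAP and NNAT without MS 1 or MS 2 (0.0602 and 0.0811).

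**Figure D5:**
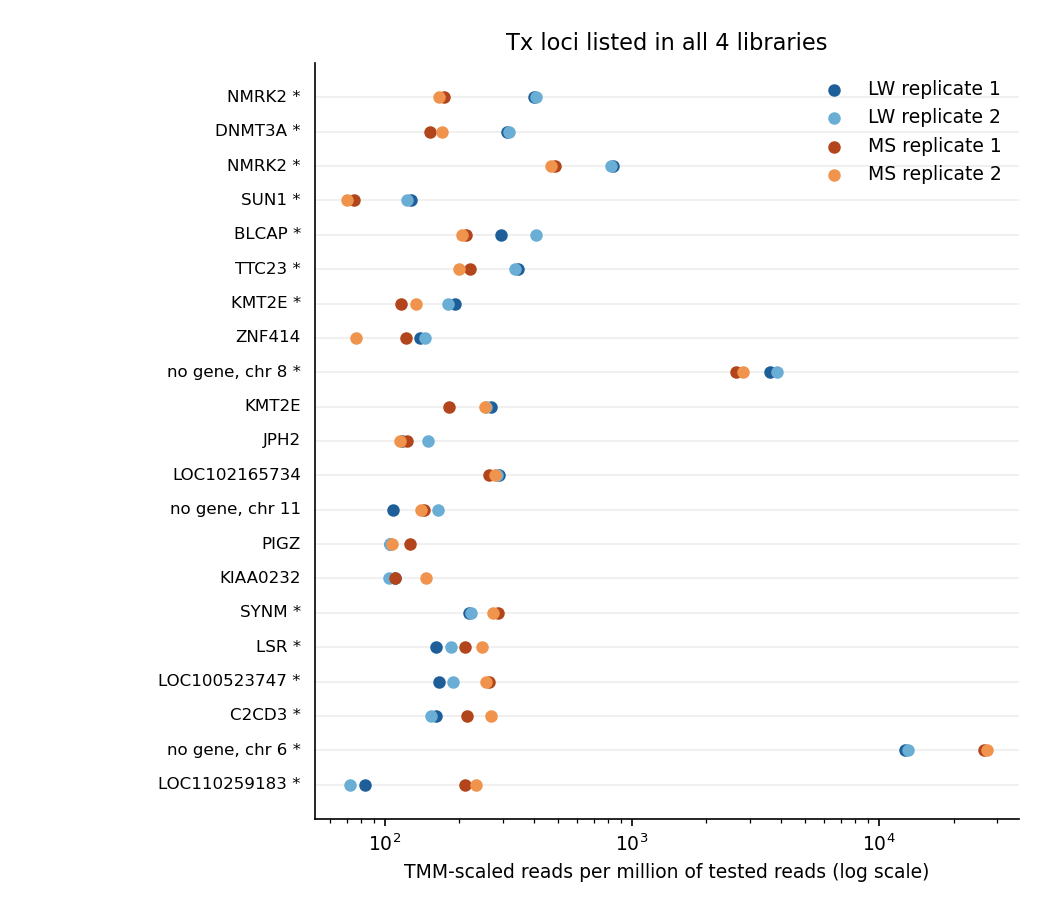
TMM-scaled CPM of the tested reads (log scale) of Tx loci listed in all 4 libraries, 1 row per locus named by an overlapped gene, 1 point per library, with an asterisk where the edgeR adjusted p was under 0.05. The 2 LW points of BLCAP and of the chromosome 11 locus lie apart, and the locus of chromosome 6 lies far to the right with both MS points above both LW points.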

How the data were processed

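Muscle was sampled in 4 GRID-seq and 4 BL-HiChIP libraries, grouped by breed and replicate from the labels. Per the submitters' processing notes and the study's methods, GRID-seq reads were trimmed, split at the linker and mapped to Sscrofa11.1 with Bowtie2 2.2.5 and SAMtools 1.9. The count of reads per RNA is the whole number the authors deposited after they had removed ambiguous reads and selected chromatin-enriched RNAs. The signal per 1-kb bin is the value the authors deposited after background correction, which starts at 0.02. At the chromosome 6 locus it did not rise with the RNA's own reads. The largest bin there was 10.4 in LW 1 (91537 reads) and 5.50 in MS 2 (197833 reads). The p-value of a loop is the FDR the authors deposited with each anchor pair. The lists carry no column names, so these readings rest on the values. How Tx transcripts were outlined is not given in the sources used here. Depth is the sum of listed reads; RNAs below the listing are not counted, and no interval was computed.

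Labels were matched by position, since 16 of them occurred in more than 1 library and 0 of these marked overlapping intervals. The members and lists were chosen with earlier results of these data known. Repeated rows of an RNA and bin were summed. Gene positions are RefSeq's on Sscrofa11.1, without strand, and no sequence was used. Some Tx transcripts overlapped several genes, and not every one is named. Examples are C2CD3 with LOC110255397, CASZ1 with LOC110261094 and KLF13 with LOC102164789. Overlapping RNAs of 1 strand made a locus. Loci listed in all 4 libraries were tested with edgeR 4.0.16 in R 4.3.3 (TMM, quasi-likelihood test, Benjamini-Hochberg), after a test on simulated data, with DESeq2 1.42.0, other scalings and left-out libraries as alternatives. Other values were compared with exact permutation tests. Loci were named by a rule (most libraries, most reads, farthest reach, no gene, smallest p or an overlapped list gene); SSH2, ACOX2, ALPK2, KCNJ12, PSTPIP1, MLXIP, TNRC6B, SPEG, FGF21, CASZ1 and KLF13 were named after their values were seen. Some loci that these rules name are not reported here.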

Additional observations from a re-analysis of the deposited data

Results flagged for a closer look

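Genic against non-genic Tx transcripts moved in opposite directions in the 2 breeds for 3 measures, in both libraries of each, and these differences between breeds were not tested. The genic median of reads was higher by 27 and 116.5 in LW and lower in MS (-8180 and -1210), a difference of 4766.75 between the breed means. Without the 2 loci of most reads, it was 97 and 142.5 for LW against -576.5 and -235 for MS, 525.5 apart. The median local share without these loci was -0.82 and -3.11 percentage points for LW against 24.3 and 6.59 for MS, -17.4 apart. The median of same-chromosome bins beyond 10 kb was 3.5 and 1.5 higher in LW and lower in MS (-27 and -24), 28 apart with or without the 2 loci. In MS these medians rest on 4 and 5 non-genic Tx transcripts, and on 2 and 3 without the 2 loci.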

How the results depend on the processing

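Requiring 1000 reads left 102 of the 294 Tx transcripts. The mean share that overlapped a gene (84.9%) was 80.8% with at least 50% of the interval inside genes, 81.0% with protein-coding genes alone and 94.3% with genes extended by 5 kb. The mean share at an anchor (74.8%) was 70.3% at an FDR of at most 0.001, 44.3% with loops called in both libraries, 89.5% within 5 kb and, chosen after seeing the data, 62.2% at the midpoint, where Tx minus named turned from -21.0 to 3.70 percentage points. The median local share, averaged over the 4 libraries (90.2%), was 56.5% by bins, 73.8% within 5 kb, 100% within 50 kb and 76.6% from 1000 reads up. Tx minus named turned from 3.98 to -5.68 within 5 kb and -6.23 from 1000 reads up. Per kb, Tx minus named reads turned from -3285 to 22.3. Without the 2 loci of most reads, chosen after seeing the data, LW minus MS in the Tx share of reads turned from -0.50 to 0.50 percentage points. The number of Tx loci (151) ranged from 111 to 149 without 1 library.

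All loci called ranged from 251 to 263 without 1 library, against 272, and Tx loci called from 14 to 16, against 15; a breed left with 1 library is taken to vary like the other. With listed length as an offset 10 Tx loci were higher in MS. That offset turned the log2 difference to -0.16 at LOC102165734, -0.052 at BLCAP, -0.12 at JPH2, 0.13 at KIAA0232 and -0.0075 at the KMT2E locus that ends at 104911305, and total reads turned the non-genic locus on chromosome 11 to 0.091. Without 1 library that locus ranged from -0.39 to 0.22 and JPH2 from -0.018 to 0.34. The cause was not tested. Replicate numbers deviated together (r = 0.65 over 333 loci), but 2 numbers do not show pairing; with the replicate block 274 loci were called, and 15 Tx loci as before. DESeq2 called 274 and 15. Reads of RNAs under the listing limit what absences can show.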

Other observations

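Other Tx loci lay in genes of muscle and of metabolism that no comparison above covers. SPEG, a kinase of striated muscle, held 5 Tx transcripts with 1879 reads in LW 2, 1106 in MS 1 and 765 in MS 2. FGF21, a metabolic hormone gene, held 1 in each library but MS 1, with 957, 1092 and 496 reads. CASZ1, a zinc finger gene, held Tx transcripts before its listed interval in both LW libraries (1819 and 1049 reads). KLF13 carried a Tx transcript on the opposite strand in MS 2 (486 reads).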
